A study of Mus musculus with 10 samples.

Results

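The microRNA genes on the array were described in splenic B cells of 3 mouse genotypes. They were all probe sets that carried exactly 1 gene symbol beginning with Mir and a digit, or with Mirlet7: 305 of the 34760 probe sets of the table, and of the 21640 with exactly 1 symbol. They name 300 genes of the 19937 genes tested. Of these, 4 symbols with 7 probe sets end in hg and stand for longer host transcripts (Mir17hg, Mir99ahg, Mir100hg and Mir670hg), and the others are microRNA genes proper. A further 37 probe sets name a microRNA beside other genes and were not used. This rule by symbol used no measured value. It was written with earlier results of these data known, and it named Mir15a and Mir30e.

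Total RNA came from splenic B cells sorted by flow cytometry as B220+CD22+, from mice on a CBAxC57BL/6J background, and was read on 10 Affymetrix Mouse Gene 1.0 ST arrays. The delta group had 4 arrays, from Sca1-Bcl6(delta) mice, which carry the floxed transgene and were bred to mb1-Cre, a recombinase under the control of the B lineage locus mb1. The floxed group had 3 arrays, from Sca1-Bcl6(floxed) mice, whose transgene holds mouse Bcl6 followed by IRES-eGFP, flanked by loxP sites, in the pLy6 vector, named for Sca1 (Ly6a). The wild-type group had 3 arrays, from mice labelled wild-type, and no group is labelled as carrying Cre alone. Transgenic mice came from 2 independent lines, the age is not given, and the labels tie no array to a line or to a separate animal, so p-values measure the spread between these arrays. A male expression pattern (Y-linked genes above Xist) was present in 1 of 4 delta arrays (delta 1), 3 of 3 floxed arrays and 0 of 3 wild-type arrays. Sex and genotype therefore cannot be told apart in floxed against wild-type. The 6 B cell markers measured averaged log2 levels of 13.03 to 13.10 in delta, 13.13 to 13.22 in floxed and 13.12 to 13.22 in wild-type arrays. All delta arrays lay below all others in this average. Bcl6, a transcriptional repressor of germinal centre B cells and the cargo of the transgene, lay at log2 levels of 9.56 to 9.83 in delta, 9.80 to 9.96 in floxed and 9.80 to 10.48 in wild-type arrays. How far its probe set reads transgenic beside endogenous RNA was not tested.

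MicroRNAs are short RNAs that lower the translation and the stability of messenger RNAs. A long primary transcript is cut in the nucleus by Drosha and Dgcr8 into a hairpin, Xpo5 exports the hairpin, Dicer1 cuts it to a short duplex, and an Argonaute protein keeps 1 strand, which finds targets mainly through its seed (bases 2 to 8). In the B lineage, Mir150, Mir155, Mir181a, the Mir17 to Mir92 cluster and the Mir15a/Mir16-1 pair have known roles, the last as a brake on the cell cycle that is often lost in human chronic lymphocytic leukaemia. A probe set of this array type lies in or near the hairpin and reads labelled total RNA. It does not separate primary transcript, hairpin and mature microRNA, and the column clean-up that the labels describe keeps mainly longer RNA. Levels below are therefore levels of the locus' RNA, and the amount of mature microRNA was not tested. In bulk samples of this kind, fewer cells of a type and less RNA per cell cannot be told apart.

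The first mature sequences given are those of 2 seed groups, that of Mir15a and that of Mir30e. All RefSeq sequences given here come from the build GRCm38.p6, run 5′ to 3′, and carry the seed in capitals. Mir15a, the microRNA gene that passed the test in floxed arrays, shares its seed with 5 other measured genes whose mature sequence was at hand, of which Mir16-1 lies beside it on chromosome 14.
Mir15a, miR-15a-5p, chr14:61632075-61632096, minus strand: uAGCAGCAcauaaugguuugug
Mir15b, miR-15b-5p, chr3:69009775-69009796, plus strand: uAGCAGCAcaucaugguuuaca
Mir16-1, miR-16-5p, chr14:61631936-61631957, minus strand: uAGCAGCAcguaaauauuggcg
Mir16-2, miR-16-5p, chr3:69009918-69009939, plus strand: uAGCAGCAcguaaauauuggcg
Mir195a, miR-195a-5p, chr11:70235062-70235082, plus strand: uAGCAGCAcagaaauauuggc
Mir497, miR-497a-5p, chr11:70234730-70234751, plus strand: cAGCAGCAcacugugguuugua
Mir16-1 and Mir16-2 give the same mature sequence from 2 loci. Mir30e, which was low in every floxed array, shares its seed with 4 other measured genes whose mature sequence was at hand. Mir30b and Mir30d were measured too.
Mir30a, miR-30a-5p, chr1:23272274-23272295, plus strand: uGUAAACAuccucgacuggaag
Mir30c-1, miR-30c-5p, chr4:120769584-120769606, minus strand: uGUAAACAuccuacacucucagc
Mir30c-2, miR-30c-5p, chr1:23291714-23291736, plus strand: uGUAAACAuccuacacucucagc
Mir30e, miR-30e-5p, chr4:120772660-120772681, minus strand: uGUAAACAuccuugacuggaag
Mir384, miR-384-5p, chrX:105344332-105344354, minus strand: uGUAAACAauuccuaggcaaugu
Mir30c-1 and Mir30c-2 again give 1 mature sequence from 2 loci. The following mature sequences belong to further genes described below for the size of their difference (Mir142, Mir421, Mir350 and Mir19a) or for their role in B cells (Mir155).
Mir142, miR-142a-5p, chr11:87756867-87756887, plus strand: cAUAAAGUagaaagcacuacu
Mir142, miR-142a-3p, chr11:87756903-87756925, plus strand: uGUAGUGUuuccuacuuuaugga
Mir421, miR-421-5p, chrX:103572966-103572986, minus strand: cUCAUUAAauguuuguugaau
Mir350, miR-350-3p, chr1:176772342-176772363, minus strand: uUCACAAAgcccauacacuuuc
Mir19a, miR-19a-3p, chr14:115044048-115044070, plus strand: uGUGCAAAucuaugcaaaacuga
Mir155, miR-155-5p, chr16:84714143-84714165, plus strand: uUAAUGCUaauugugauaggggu

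Most microRNA probe sets were dim. Of the 305, 74 (24.26%) lay above the median of all probe sets in each of the 3 wild-type arrays. That median was 7.17 on the log2 scale for the mean of the wild-type arrays. The same was true of 10627 (49.11%) of the 21640 probe sets with exactly 1 symbol. The median microRNA probe set had a log2 level of 5.93 in delta, 5.91 in floxed and 5.95 in wild-type arrays, against 7.22 for probe sets with 1 symbol in wild-type arrays. The number above the median in single arrays was 74 to 76 in delta, 69 to 75 in floxed and 75 to 79 in wild-type arrays. Across all 10 arrays, 61 probe sets were above the median in every array, 216 in none and 28 in some. Only 9 lay above the upper quartile of all probe sets in every wild-type array. At the border, Mir681, Mir17hg and Mirlet7d passed with the smallest margins, of 0.0029, 0.029 and 0.033 on the log2 scale in their lowest wild-type array, and Mir125a, Mirlet7e and Mir670 came closest below it. The median is a rule of rank and not a test of expression.

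The highest levels in wild-type arrays belonged to 10 genes of several roles. Mir505 led with log2 levels of 11.10, 10.89, 10.78 and 11.07 in delta, 10.58, 10.22 and 10.79 in floxed, and 10.95, 11.06 and 11.04 in wild-type arrays. Mir692-1 followed with a mean of 10.91 in wild-type arrays and Mir7-1, which lies within the RNA-binding protein gene Hnrnpk, with 10.59. Mir142, a microRNA gene of blood cells in general, was next at 9.79. Mir598, Mir346, Mir680-3, Mir210, Mir6516 and Mir15a lay between 9.01 and 9.63 in wild-type arrays. Mir210 is known as a target of the hypoxia response, and Mir6516 lies within the small nucleolar RNA host gene Snhg20. Neighbours in this order differed by less than their spread in several places: Mir346 and Mir680-3 had means of 9.50 and 9.49, and Mir6516 and Mir15a both 9.01. Because each probe set has its own probes, the order of single genes is a description of signal and not of relative RNA amounts.

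Genes known from other tissues, chosen after their values were seen, stood on both sides of the median. Mir122, the abundant microRNA of liver, had a wild-type mean of 5.36, and the erythroid genes Mir451a and Mir144 had 5.60 and 2.94. Mir1a-1 of muscle lay at 3.04 and the heart microRNA Mir208a at 4.04. By contrast, Mir375, known from pancreatic islets, lay above the median at 7.48. Mir667 and Mir341, from the imprinted region between Dlk1 and Dio3 on chromosome 12, lay at 8.85 and 8.75. That region held 40 of the 300 genes, of which 9 (22.5%) were above the median, with a median level of 4.59.

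A base composition measure followed these levels. RefSeq held a hairpin sequence for 258 of the 300 genes. The level in wild-type arrays was higher for hairpins richer in G and C, with Pearson's r = 0.68 and Spearman's rho = 0.69 across the 258 genes, which are not independent replicates. Within single arrays r lay between 0.65 (floxed 3) and 0.72 (floxed 1). Split into 4 bins by GC content, the lowest, with a median of 39.3% G and C, had 5 of 65 genes (7.69%) above the median level. The second bin held 5 of 64 (7.81%) and the third 13 of 64 (20.3%). In the highest bin, with a median GC content of 58.2%, 33 of 65 (50.8%) were above it, close to the share of all probe sets with 1 symbol. GC content bore little relation to the differences between groups: r across genes was -0.06 in floxed against wild-type, -0.02 in delta against wild-type and 0.07 in delta against floxed. Whether probe binding or RNA amount underlies the relation with level was not tested.

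The following hairpins lie near the ends of that relation (Mir190a and Mir210), far from it (Mir7-1) or beside Mir15a (Mir16-1), with the mature arms in capitals.
Mir190a: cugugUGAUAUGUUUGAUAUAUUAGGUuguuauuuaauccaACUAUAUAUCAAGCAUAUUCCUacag
Mir7-1: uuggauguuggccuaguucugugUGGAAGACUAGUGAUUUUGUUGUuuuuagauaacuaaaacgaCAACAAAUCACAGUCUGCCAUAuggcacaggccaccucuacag
Mir16-1: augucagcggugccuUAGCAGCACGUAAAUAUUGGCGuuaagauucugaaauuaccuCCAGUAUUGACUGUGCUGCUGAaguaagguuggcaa
Mir210: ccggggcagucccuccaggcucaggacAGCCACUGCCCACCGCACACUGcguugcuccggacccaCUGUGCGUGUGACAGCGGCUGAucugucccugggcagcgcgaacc
Mir190a, with 28.4% G and C over 67 bases at chr9:67236660-67236726 (minus strand), was among the dimmest members, with a mean intensity of 6.4 in delta, 6.2 in floxed and 6.0 in wild-type arrays. Mir210, with 69.1% over 110 bases at chr7:141221384-141221493 (minus strand), lay near 9.05 on the log2 scale in wild-type arrays. Mir7-1 at chr13:58392779-58392886 (minus strand) departed from the relation, with 41.7% G and C and a level of 10.59. Mir16-1 at chr14:61631880-61631972 (minus strand) had 44.1% and a level of 6.80.

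**Figure D1:**
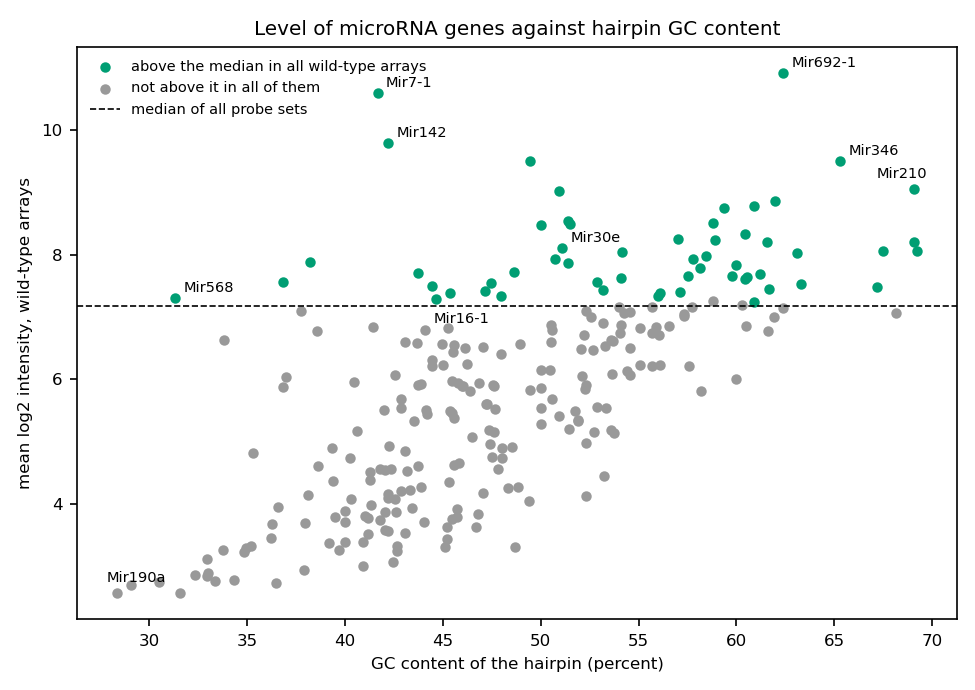
Mean log2 intensity in the 3 wild-type arrays (vertical axis) against the GC content of the RefSeq hairpin in percent (horizontal axis) for 258 microRNA genes, 1 point per gene. The points climb from Mir190a at the lower left to Mir210, Mir346 and Mir692-1 at the right, while Mir7-1 and Mir142 lie high at 41.7% and 42.2% G and C; the dashed line is the median of all probe sets, 7.17.

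Genome context was set beside these levels. Another microRNA gene lay within 10 kb of 173 genes, of which 32 (18.5%) were above the median, and of the 127 without such a neighbour 42 (33.1%) were. The median hairpin GC content was 45.8% in the clustered genes and 48.8% in the others. Of 39 X-linked genes, 4 (10.3%) were above the median, and of 261 autosomal genes 70 (26.8%). A gene on the same strand enclosed 131 of the 300, and 91 of these had a host gene with its own probe set, which gave 92 pairs with 74 distinct hosts. The host was above the median in 52 of the 92 pairs, and the microRNA gene was above it in 17 of these 52 and in 7 of the other 40. Level in wild-type arrays showed r = 0.33 between microRNA gene and host over the 92 pairs, some of which share a host.

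The B cell list of microRNA genes, written with earlier results of these data known, had 48 measured genes among its 60 symbols. Of the 48, 14 were above the median in wild-type arrays, where 74 of all 300 microRNA genes (24.67%) and 49.11% of probe sets with 1 symbol were. The 14 were Mir15a, Mir18, Mir17hg, Mir23a, Mir24-2, Mir27a, Mir30d, Mir30e, Mir142, Mir150, Mir185, Mir210, Mirlet7d and Mirlet7i. Mir150, which is abundant in mature lymphocytes and targets Myb, lay near the median, at log2 levels of 7.32, 7.25, 7.49 and 7.34 in delta, 7.53, 7.26 and 7.22 in floxed, and 7.44, 7.54 and 7.44 in wild-type arrays. Mir155, needed for normal germinal centres, lay below the median in every wild-type array. Mir181a-1 and Mir181a-2, known from early lymphocyte development, lay at 4.08 and 5.89 in wild-type arrays, while Mir181c and Mir181d, of the same seed, lay at 8.03 and 8.54. No member of the list other than Mir15a passed the test in any comparison.

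In floxed against wild-type arrays, Mir15a was the 1 microRNA gene of 300 that passed the test, and it was lower (limma across 19937 genes, Benjamini-Hochberg adjusted p under 0.05, two-sided). Over all genes, 0.552% were called in this comparison, 0.391% higher and 0.161% lower. At an unadjusted p under 0.05 stood 43 of the 300 microRNA genes, 14.3%, against 12.8% of all genes. Every floxed array lay above every wild-type array for 7 microRNA genes, 2.33% against 7.6% of all genes, and below for 32, 10.7% against 9.13% of all genes. A log2 change above 0 was found for 97 microRNA genes (32.3%, against 41.9% of all genes). The median log2 change was -0.06 over the microRNA genes, with quartiles of -0.15 and 0.02, and -0.02 over all genes. For single microRNA genes the median absolute log2 change was 0.098 and the median SE 0.096. The median change was -0.024 after centring arrays on their medians, where that of all genes was 0.013.

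Mir15a lies on the minus strand of chromosome 14 and its probe set is 10420668. Its log2 levels were 8.18, 8.21, 8.66 and 8.24 in delta, 8.14, 8.02 and 8.15 in floxed, and 9.13, 9.20 and 8.70 in wild-type arrays. All delta and all floxed arrays lay below all wild-type arrays, and the lowest wild-type array, wild-type 3, came within 0.04 of the highest delta array, delta 3. Mean intensity was 324 ± 55 in delta (SD, n = 4), 275 ± 13 in floxed (SD, n = 3) and 521 ± 93 in wild-type arrays (SD, n = 3). The log2 change was -0.91 in floxed against wild-type (SE 0.14, 95% CI -1.23 to -0.59, limma adjusted p = 0.0239). The delta change from wild-type was -0.68 (SE 0.14, limma adjusted p = 0.15), and that from floxed 0.22 (SE 0.14, limma adjusted p = 0.847). Delta 1, of male pattern, was at 8.18, beside 8.21 to 8.66 in the delta arrays of female pattern. With sex pattern as a term the floxed change was -0.72 (limma adjusted p = 0.602), a fit that separates sex from genotype through delta 1 alone. The call was also lost on leaving out floxed 1, floxed 2, floxed 3, wild-type 1 or wild-type 2, with adjusted p of 0.060 to 0.111, and the delta change passed (-0.84, limma adjusted p = 0.0495) without wild-type 3.

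Markers of other blood cells were read from the same arrays. The 6 erythroid markers measured averaged 6.62 to 7.43 in delta, 7.48 to 8.01 in floxed and 6.81 to 7.27 in wild-type arrays, and 2 of the 6 were above the median in wild-type arrays. The 8 T cell markers averaged 6.60 to 7.06 in delta, 6.77 to 7.46 in floxed and 6.60 to 6.83 in wild-type arrays, with 2 of the 8 above the median. The 6 NK cell markers averaged 6.07 to 6.64 in delta, 6.51 to 7.01 in floxed and 6.12 to 6.24 in wild-type arrays, with 1 of the 6 above it. The 8 myeloid markers averaged 6.68 to 7.31 in delta, 6.87 to 7.33 in floxed and 6.56 to 6.61 in wild-type arrays, with 0 of the 8 above it. Floxed arrays lay above the wild-type range in the erythroid, NK cell and myeloid lists, and delta arrays in the myeloid list. The other ranges overlapped that of wild-type arrays. In the erythroid list all delta arrays lay below all floxed arrays. Array levels have no true zero, and the part of these cells in the microRNA results was not tested.

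Mir16-1, the neighbour of Mir15a, was also lower without overlap but did not pass the test. Its log2 levels were 6.57, 6.48, 6.65 and 6.60 in delta, 6.49, 6.19 and 6.57 in floxed, and 6.85, 6.74 and 6.80 in wild-type arrays. All wild-type arrays lay above all others. The log2 change was -0.38 in floxed against wild-type (SE 0.09, limma adjusted p = 0.102), beside a delta change from wild-type of -0.22 (SE 0.09, limma adjusted p = 0.546). Both genes lie within Dleu2, a long non-coding RNA gene and their primary transcript. The probe set that names Dleu2 was among the dimmest of the table, at 2.76 in delta, 2.80 in floxed and 2.87 in wild-type arrays, and gives no reading of the transcript that encloses the hairpins. Of the other genes of the same seed, Mir195a lay at 7.09 in delta, 7.06 in floxed and 7.06 in wild-type arrays. Mir15b and Mir16-2, a second pair on chromosome 3, had log2 changes of -0.11 and -0.17 in floxed against wild-type with overlapping arrays, and of -0.21 and -0.23 in delta against wild-type, where Mir16-2 did not overlap. Whether Mir15a differed from these genes in its change was not tested.

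Mir30e separated the floxed arrays from both other groups. Its log2 levels were 8.37, 8.16, 8.0 and 8.26 in delta, 7.64, 7.70 and 7.81 in floxed, and 8.01, 8.29 and 7.99 in wild-type arrays. Every floxed array lay below every other array, and delta and wild-type arrays overlapped. The log2 change was 0.48 in delta against floxed (SE 0.10, 95% CI 0.27 to 0.70, unadjusted p = 0.000452 by limma), which gave an adjusted p of 0.528. In floxed against wild-type it was -0.38 (SE 0.11, limma adjusted p = 0.142) and the delta change from wild-type was 0.10 (SE 0.10, limma adjusted p = 0.881). Delta 1, of male pattern, was the highest delta array for Mir30e. With sex pattern as a term, a fit that rests on delta 1, the floxed change from wild-type was -0.61. Mir30e lies within Nfyc, which encodes a subunit of the CCAAT-binding factor NF-Y. The host lay at 10.12 in delta, 10.13 in floxed and 10.07 in wild-type arrays, a change of 0.05 in floxed against wild-type. Mir30c-1, in the same host, lay at 5.82 in delta, 5.73 in floxed and 5.83 in wild-type arrays, with every floxed array again below every other array, though by a change of only -0.10 from wild-type. Mir384, of the same seed, was at 2.82 in delta, 2.82 in floxed and 2.84 in wild-type arrays.

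**Figure D2:**
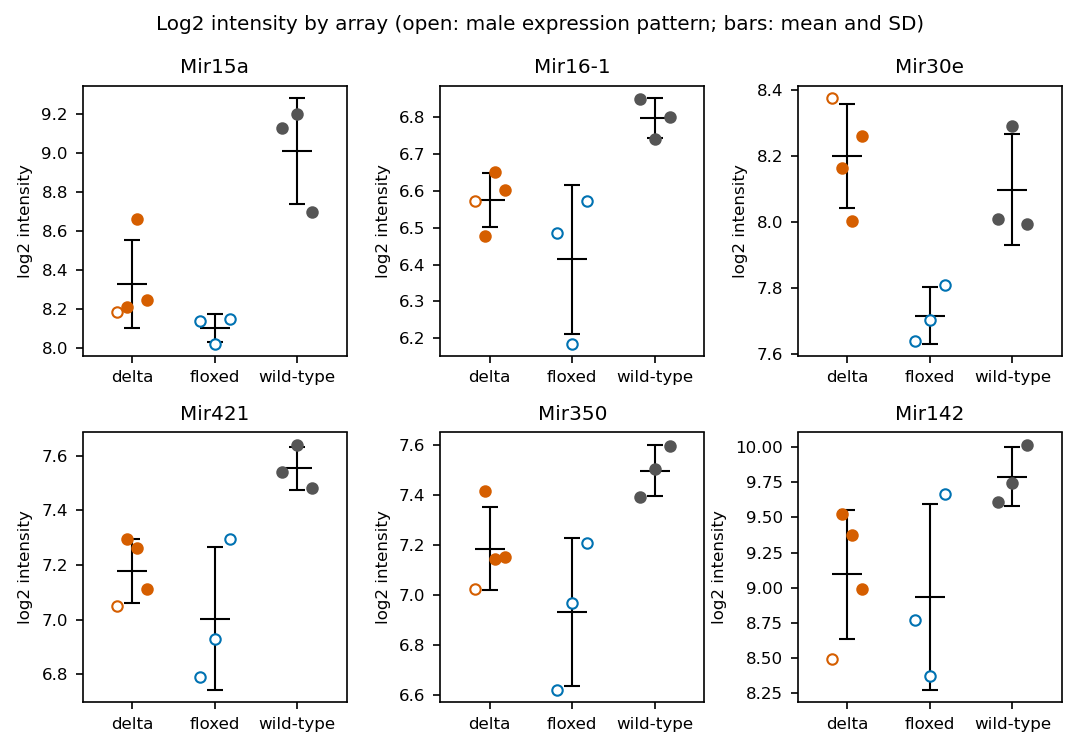
Log2 intensity of 6 microRNA genes in each array, with delta, floxed and wild-type arrays from left to right; open circles are arrays with a male expression pattern, and bars show the mean and SD. In Mir15a, Mir16-1 and Mir421 all wild-type arrays lie above all others, in Mir30e the 3 floxed arrays lie at 7.64 to 7.81 below all others, and in Mir142 and Mir350 some transgenic arrays come near the wild-type range. Each panel has its own axis range.

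Further microRNA genes were lower in floxed arrays without passing the test. Mir421, an X-linked gene within the long non-coding RNA gene Ftx, had log2 levels of 7.05, 7.29, 7.26 and 7.11 in delta, 6.79, 6.93 and 7.30 in floxed, and 7.54, 7.64 and 7.48 in wild-type arrays. No transgenic array reached the wild-type range. Its changes were -0.55 in floxed (SE 0.12, limma adjusted p = 0.0684) and -0.37 in delta (SE 0.11, limma adjusted p = 0.369) against wild-type. Over 19 alternatives the floxed change of Mir421 ran from -0.69 to -0.38, with limma adjusted p from 0.025 to 0.75. Delta 1, of male pattern, was the lowest delta array for Mir421 and for the next gene, Mir350. With sex pattern as a term, a fit that rests on delta 1, their floxed changes were -0.38 and -0.35. Mir350, within Cep170, had 7.02, 7.42, 7.14 and 7.15 in delta, 6.62, 6.96 and 7.21 in floxed, and 7.39, 7.5 and 7.6 in wild-type arrays. Here 1 delta array lay within the wild-type range, and the floxed change was -0.57 (SE 0.14, limma adjusted p = 0.101), beside -0.17 for Cep170 (limma adjusted p = 0.442). Mir505, on chromosome X, had log2 changes of -0.49 in floxed against wild-type (SE 0.13, limma adjusted p = 0.123) and of 0.43 in delta against floxed (SE 0.12, limma adjusted p = 0.649). For Mir505, delta 1 was the highest delta array, and with sex pattern as a term its floxed change was -0.68. For the 39 X-linked genes, floxed arrays lay above wild-type arrays without overlap for 0 and below for 5, and for the 261 autosomal genes for 7 and 27, where 7.6% of all genes lay above and 9.13% below.

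Mir142 and Mir340 had large differences and a large spread. Mir142 had log2 levels of 8.49, 9.52, 9.37 and 8.99 in delta, 8.77, 8.37 and 9.66 in floxed, and 9.61, 9.75 and 10.02 in wild-type arrays. Floxed 3 lay within the wild-type range and floxed 1 and 2 below it, and all delta arrays lay below all wild-type arrays. The change was -0.86 in floxed (SE 0.31, 95% CI -1.54 to -0.17, limma adjusted p = 0.271) and -0.70 in delta (SE 0.29, limma adjusted p = 0.585) against wild-type. Mir340, named after its values were seen, had 6.18, 6.90, 6.53 and 6.56 in delta, 6.30, 5.64 and 6.98 in floxed, and 7.26, 7.02 and 6.99 in wild-type arrays. It lies within the ubiquitin ligase gene Rnf130, and had a log2 change of -0.78 in floxed against wild-type (SE 0.27, limma adjusted p = 0.242) while that of Rnf130 was -0.15 (limma adjusted p = 0.529). For both genes floxed 2 was the lowest array and floxed 3 the highest floxed array. Delta 1, of male pattern, was the lowest delta array for both. Over 19 alternatives the floxed change of Mir142 ran from -1.22 to -0.05. The -0.05 came with sex pattern as a term, a fit that separates sex from genotype through delta 1 alone. On leaving out 1 array the change nearest to 0 was -0.57.

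The Mir17 to Mir92 cluster on chromosome 14, which favours the growth and survival of B cells, had 6 measured members (Mir17, Mir18, Mir19a, Mir20a, Mir19b-1 and the host transcript Mir17hg). Their changes in floxed against wild-type lay between -0.57 and -0.08 and had a median of -0.35. In delta against wild-type the median was -0.25, and 2 members were lower without overlap in each of these comparisons, which share the wild-type arrays and where 9.13% (floxed) and 5.5% (delta) of all genes were lower without overlap. Mir19a had the largest change, at log2 levels of 5.50, 5.68, 5.66 and 4.79 in delta, 5.06, 5.39 and 5.62 in floxed, and 5.78, 6.08 and 5.91 in wild-type arrays. All wild-type arrays lay above all others, and the floxed change was -0.57 (SE 0.21, limma adjusted p = 0.289). Mir17hg, which reads the host transcript, lay at 7.10, 7.27, 7.18 and 7.01 in delta, 6.88, 7.02 and 7.19 in floxed, and 7.19, 7.36 and 7.26 in wild-type arrays, a floxed change of -0.24 (SE 0.09, limma adjusted p = 0.308). None of the 6 passed the test, and they share 1 primary transcript, so they are not independent.

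Higher values in floxed arrays were fewer. Mir381, from the imprinted region on chromosome 12, had the smallest p among them, at log2 levels of 3.90, 3.88, 3.84 and 3.80 in delta, 4.01, 3.95 and 4.16 in floxed, and 3.72, 3.60 and 3.79 in wild-type arrays. The groups did not overlap, and the floxed change was 0.34 (SE 0.07, limma adjusted p = 0.0737), at levels near the floor of the table. Mir568, whose hairpin lies on the strand opposite Tigit, an inhibitory receptor gene of T and NK cells, had the largest difference, with 7.75, 7.5, 7.71 and 8.49 in delta, 7.58, 7.99 and 8.32 in floxed, and 7.40, 7.26 and 7.22 in wild-type arrays. Every transgenic array lay above every wild-type array, and the changes were 0.67 in floxed (SE 0.23, limma adjusted p = 0.242) and 0.56 in delta (SE 0.22, limma adjusted p = 0.524). Mir155 had 7.21, 6.59, 6.84 and 7.16 in delta, 6.90, 6.73 and 7.07 in floxed, and 6.61, 6.59 and 6.57 in wild-type arrays. Delta 2 was level with the wild-type arrays, and the other transgenic arrays lay above them. Mir155 had log2 changes of 0.31 in floxed (SE 0.15, limma adjusted p = 0.405) and 0.36 in delta (SE 0.14, limma adjusted p = 0.516). Mir151, Mir10a and Mir717 had log2 changes of 0.37, 0.25 and 0.20 in floxed against wild-type, with adjusted p between 0.124 and 0.299 by limma.

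In delta against wild-type arrays, 0 of the 300 microRNA genes passed the test by limma, against 0.0752% of all genes (0.0301% higher and 0.0451% lower). At an unadjusted p under 0.05 stood 19 (6.33%, against 7.89% of all genes). Delta arrays lay above wild-type arrays without overlap for 4 genes (1.33%, against 3.75% of all genes) and below for 24 (8%, against 5.5%), which is 9.33% in either direction, against 9.25%. A log2 change above 0 was found for 114 (38%, against 43.6%), and the median change was -0.03, against -0.01 over all genes. That median was -0.011 without wild-type 3 and -0.013 without delta 2, and -0.014 after centring arrays on their medians, where that of all genes was 0.0031. Besides Mir15a, the smallest p-values among lower genes were those of Mir1839, Mir421, Mir148b and Mir297b, with changes of -0.40, -0.37, -0.32 and -0.25 and limma adjusted p between 0.349 and 0.414. Mir1839 had 5.62, 5.69, 5.68 and 5.53 in delta, 5.49, 5.61 and 6.05 in floxed, and 6.12, 5.92 and 6.07 in wild-type arrays. All delta arrays lay below all wild-type arrays, and floxed 3 lay among the wild-type arrays. Among higher genes, Mir30c-2, Mir155, Mir568, Mir381 and Mir23a had changes of 0.15 to 0.56 and limma adjusted p between 0.516 and 0.658. Mir23a, Mir27a and Mir24-2 form 1 cluster on chromosome 8, known to hold back B cell development, and had log2 changes of 0.17, 0.28 and 0.16 in delta against wild-type. Leaving out 1 array lowered these to as little as 0.11 for Mir23a, 0.15 for Mir27a and 0.055 for Mir24-2.

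In delta against floxed arrays, 0 of the 300 passed the test by limma, against 0.00502% of all genes. At an unadjusted p under 0.05 stood 27 (9%, against 6.42% of all genes). Delta arrays lay above floxed arrays without overlap for 16 (5.33%, against 3.36%) and below for 6 (2%, against 3.61%). A log2 change above 0 was found for 188 (62.7%, against 52.1%), with a median of 0.026, against 0.0045 over all genes. That median was 0.0063 after centring arrays on their medians, where that of all genes was -0.015, and 0.0096 without floxed 3. After Mir30e, the smallest p-values among higher genes were those of Mir32, Mir505, Mir199a-1 and Mir693. Mir32, within Tmem245, had 6.88, 7.11, 6.96 and 6.88 in delta, 6.51, 6.25 and 6.81 in floxed, and 6.89, 6.70 and 6.72 in wild-type arrays, a change of 0.43 in delta against floxed (SE 0.11, limma adjusted p = 0.641). All delta arrays lay above all floxed arrays, and wild-type arrays lay between and among both. Lower in delta were Mir717, Mir10a, Mir151, Mir692-1 and Mir297b, by -0.28 to -0.22, with limma adjusted p between 0.649 and 0.731. This comparison sets arrays with Cre against arrays without it, and a sex pattern that is male in 1 of 4 delta and 3 of 3 floxed arrays.

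**Figure D3:**
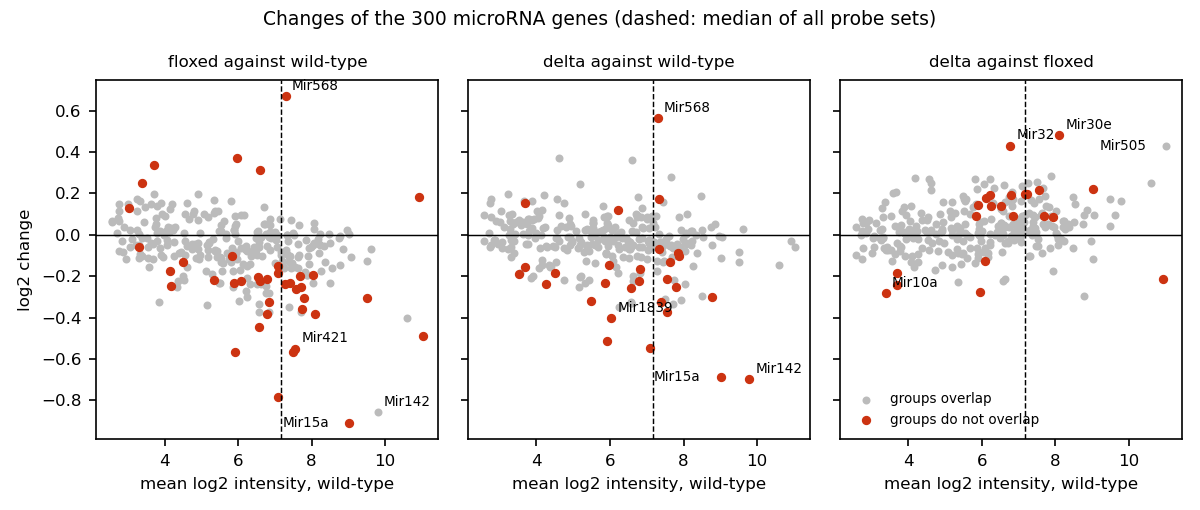
Log2 change (vertical axis) against mean log2 intensity in wild-type arrays (horizontal axis) for the 300 microRNA genes, with floxed against wild-type on the left, delta against wild-type in the middle and delta against floxed on the right. Red points are genes whose groups do not overlap and grey points the others; the dashed line is the median of all probe sets. Most red points lie below 0 in floxed against wild-type (32, 10.7%, where 9.13% of all genes did so). The same holds in delta against wild-type (24, 8%, against 5.5% of all genes). In delta against floxed most lie above 0 (16, 5.33%, against 3.36% of all genes). The 3 panels share arrays.

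Seed groups showed no member beyond Mir15a past the test in any comparison. Mature sequences were held by RefSeq for 270 of the 300 genes. The let-7 group, which restrains growth, had 9 measured members with the seed among their mature sequences at hand (Mir98 and 8 Mirlet7 genes), and Mirlet7a-2 was measured too. It had 2 of these 9 members above the median in wild-type arrays and changes of -0.32 to 0.20 in floxed against wild-type. Arrays did not overlap for 0 of the 9 in that comparison, against 16.7% of all genes. The count was 1 in delta against wild-type (9.25% of all genes) and 1 in delta against floxed (6.96%). The Mir181 group had 2 of 6 above the median, and all 6 members had a change below 0 in floxed and in delta against wild-type, from -0.37 to -0.03 and from -0.35 to -0.01. Of all genes, 41.9% and 43.6% had a change above 0 in these comparisons, which share the wild-type arrays. Without overlap stood 1 of the 6 in floxed, against 16.7% of all genes, and 0 in delta, against 9.25%. Members of the group lie in pairs within 10 kb, so they are not independent. The 6 genes that share the seed of Mir17 (Mir17, Mir20a, Mir20b, Mir93, Mir106a and Mir106b) had none above the median and changes of -0.37 to 0.01 in floxed against wild-type. Mir19a, Mir19b-1 and Mir19b-2 had log2 changes of -0.57 to -0.17 in floxed and of -0.51 to -0.15 in delta against wild-type. Members of a seed group sit at different loci and had levels up to several log2 units apart, as in the Mir15 group (5.18 to 9.01 in wild-type arrays).

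**Figure D4:**
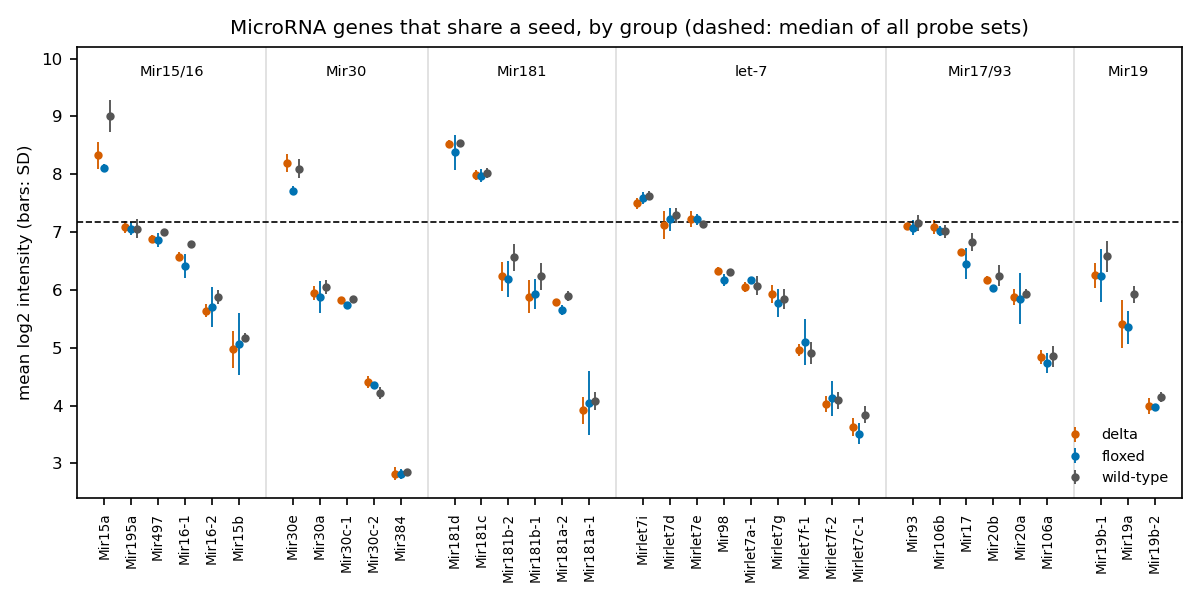
Mean log2 intensity of microRNA genes that share a seed, in delta (orange), floxed (blue) and wild-type (grey) arrays, with bars for the SD between arrays; n = 4, 3 and 3 in that order. Mir15a is the member whose transgenic arrays lie farthest below wild-type.

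Changes of microRNA genes were set beside those of their hosts and showed little relation. Between microRNA gene and host, r of the log2 change over the 92 pairs was 0.03 in floxed against wild-type, 0.13 in delta against wild-type and 0.06 in delta against floxed, and the signs matched in 53, 54 and 54 of the 92. In 1 of the 92 pairs the host passed the test in floxed against wild-type, where 0.552% of all genes did. In the other comparisons 0 did. This host, Pde2a, a cyclic nucleotide phosphodiesterase gene, changed by -1.05 in floxed against wild-type (SE 0.14, limma adjusted p = 0.0113). Its microRNA gene Mir139, named after its values were seen, had 8.53, 8.49, 8.54 and 8.56 in delta, 8.49, 8.51 and 8.41 in floxed, and 8.48, 8.53 and 8.52 in wild-type arrays, with all groups overlapping.

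The machinery of microRNA production and action was bright and showed no call. Of the 42 genes listed, 41 were measured and 37 were above the median in wild-type arrays, and 0 passed the test by limma in any of the 3 comparisons. At an unadjusted p under 0.05 stood 4 in floxed against wild-type (9.76%, against 12.8% of all genes), 3 in delta against wild-type (7.32%, against 7.89%) and 0 in delta against floxed (against 6.42%). Median changes over the 41 were -0.01 in floxed against wild-type, 0.01 in delta against wild-type and 0.02 in delta against floxed. Drosha, the nuclear enzyme, had means of 8.21 in delta, 8.17 in floxed and 8.23 in wild-type arrays, and its partner Dgcr8 had 9.32 in delta, 9.32 in floxed and 9.33 in wild-type arrays. The exporter gene Xpo5 had 9.27 in delta, 9.26 in floxed and 9.21 in wild-type arrays. Mir693, inside Xpo5, lay at 6.77 in delta, 6.57 in floxed and 6.79 in wild-type arrays. Dicer1 had 10.80 in delta, 10.72 in floxed and 10.84 in wild-type arrays, a floxed change from wild-type of -0.12 (SE 0.06, limma adjusted p = 0.453). The Argonaute gene Ago2 had 10.73 in delta, 10.70 in floxed and 10.65 in wild-type arrays. Snd1, which encodes a nuclease of the silencing complex, had the smallest p, with 10.25, 10.12, 10.16 and 10.21 in delta, 10.22, 10.23 and 10.31 in floxed, and 10.07, 9.97 and 10.03 in wild-type arrays. All transgenic arrays lay above all wild-type arrays, and the changes of Snd1 were 0.23 in floxed (SE 0.06, limma adjusted p = 0.132) and 0.16 in delta (SE 0.06, limma adjusted p = 0.50). Ago3 had log2 changes of 0.16 in floxed and 0.18 in delta against wild-type, also without overlap. Without overlap in either direction stood 5 of the 41 in floxed against wild-type (12.2%, against 16.7% of all genes) and 4 in delta against wild-type (9.76%, against 9.25%). Tut4, which adds uridines to let-7 precursors, had a log2 change of -0.17 in floxed against wild-type.

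Probe sets of 1 gene could disagree. Mir713 had 3 probe sets, and the brightest, used in the fit, had means of 6.40 in delta, 6.61 in floxed and 6.62 in wild-type arrays, a floxed change of -0.01, where the second gave -0.36 and the third -0.15. Mir99ahg had 4, with wild-type means between 3.54 and 7.04, and only the brightest came near the median. With every probe set kept as its own feature, the calls among microRNA genes were the same as with 1 probe set per gene: Mir15a in floxed against wild-type and none in the other comparisons.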

How the data were processed

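RNA was measured on 10 arrays (4 delta, 3 floxed, 3 wild-type). Per the submitters' processing notes, the authors ran RMA, and the deposited intensity of each probe set is on a linear scale, so log2 of the deposited values was taken. Not given in the sources used here are RMA's software and the probes' genome build. Median intensity per array was 139 to 145, and the number of arrays limits the precision.

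Probe sets with exactly 1 symbol were kept, 1 per gene (the highest mean over all arrays), leaving 19937 genes. They were tested with limma 3.58.1 in R 4.3.3 (lmFit with 3 group means, eBayes, two-sided, Benjamini-Hochberg adjustment over all genes, threshold 0.05; prior degrees of freedom 4.32). The procedure was tested on simulated data.

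Members and lists were chosen with earlier results of these data known. Named genes were Mir15a, Mir30e, calls, the 5 smallest p-values per direction and comparison, the 10 highest wild-type levels, B cell list members above the median, and genes with several probe sets. Other genes named were chosen after their values were seen. Sequences, positions and hosts came from RefSeq tables, which matched 300 of 300 symbols. Alternatives covered normalization, filter, gene unit, variance prior, weights, arrays in the fit, sex pattern, the replicate number as a block and each array left out. Replicate numbers do not pair arrays: of 9 correlations between same-numbered arrays, from -0.08 to 0.12, 1 was above 0.1.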

Additional observations from a re-analysis of the deposited data

Results flagged for a closer look

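The search covered the 44 probe sets of the genes named by rule, and not the other genes named in the text. In each, the 4 delta arrays were searched for an array whose gap to its nearest neighbour took most of the group's range (Dixon's ratio). Of the 44, 5 had such an array. Chance alone marks about 1 group in 20. Delta 3 was the highest delta array for Mir15a (10420668), at a log2 level of 8.66 and a ratio of 0.877, and the lowest for Mir10a (10380646), at 3.19 and 0.884. Delta 1 was the highest for Mir27a (10573344), at 8.33 and 0.833, and the lowest for Mirlet7d (10409059), at 6.76 and 0.858. Delta 4 was the lowest for Mirlet7i (10372926), at 7.35 and 0.866. For Mir15a, delta 3 is the delta array nearest to the wild-type range.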

How the results depend on the processing

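The number of microRNA genes called in floxed against wild-type, 1 as reported, was 2 after quantile normalization again and 2 after centring arrays on their medians (Mir15a lower and Mir381 higher, a split of 1 and 1 in place of 0 and 1), 3 with array weights (Mir15a, Mir16-1 and Mir421) and 0 with sex pattern as a term. Leaving out 1 array gave 0 to 2, the 2 being Mir421 and Mir7-1 without floxed 3. With the replicate number as a block it was 2 (Mir15a and Mir19a), and the block changed no count in the other comparisons; the numbers do not pair the arrays. In delta against wild-type, leaving out 1 array gave 0 to 1, and every other alternative gave 0; in delta against floxed all gave 0. The cause of these shifts was not tested. With the upper quartile in place of the median, 9 probe sets counted as above it. The change of Mir15a in floxed against wild-type was -1.06 to -0.72 over 19 alternatives and past the threshold in 13. Those 13 include the fits without 1 delta array, which cannot alter this change and alter only its SE. The call was lost without floxed 1, floxed 2, floxed 3, wild-type 1 or wild-type 2. The median change of the microRNA genes ran from -0.075 to -0.041 in floxed against wild-type, -0.044 to -0.011 in delta against wild-type and 0.0096 to 0.044 in delta against floxed on leaving out 1 array, and was -0.024, -0.014 and 0.0063 after centring. Small changes turned sign. With sex pattern as a term, floxed against wild-type was -0.16 for Mir23a, -0.35 for Mir24-2, -0.48 for Mir27a and 0.40 for Mirlet7d. Leaving out 1 array, it ran from -0.059 to 0.079 for Mir23a, -0.063 to 0.16 for Mir24-2, -0.028 to 0.17 for Mir27a, -0.21 to 0.012 for Mir210, -0.17 to 0.025 for Mirlet7d and -0.074 to 0.014 for Mirlet7i. Mir210 in delta against wild-type was 0.0041 after centring and -0.029 to 0.0062 on leaving out 1 array. Mir142 in floxed against wild-type ran from -1.22 to -0.57 on leaving out 1 array. Over all 19 alternatives its smallest change was -0.05, with sex pattern as a term. Levels near the floor of the table and groups of 3 or 4 arrays limit what single microRNA genes can show.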
